A study of Mus musculus with 6 samples.

Results

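Fatty acids are burned for energy in mitochondria and, for very long and branched chains, first shortened in peroxisomes. Long-chain fatty acids enter mitochondria bound to carnitine, are cut back by repeated rounds of dehydrogenation, hydration, dehydrogenation and thiolysis, and hand electrons to the respiratory chain through the electron transfer flavoprotein. The liver turns much of the resulting acetyl-CoA into ketone bodies for export during fasting, a state in which CREBH is active. The 33 genes described here were listed by name for these steps: 19 genes of mitochondrial fatty acid oxidation, 9 peroxisomal genes, 3 ketone body genes and 2 transcriptional coactivators. Of these, 31 were measured among 18820 genes in all. For Acadvl and Cpt1b the annotated feature also carried the symbol of another gene, so that neither is given a value.

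The cells were primary hepatocytes of male wildtype C57BL/6J mice 8 to 10 weeks old, freed from the liver by digestion and cultured in 60 mm dishes. They were transduced with Ad-nuclear CREBH, an adenovirus that carries the nuclear fragment of the transcription factor CREBH, or with Ad-GFP, a control adenovirus for green fluorescent protein. Both viruses were used at 100 particles per cell, and 3 dishes of each were collected after 24 h and measured on 1 array each. Nuclear CREBH was made in the shuttle vector pAd-CMV, in which a viral promoter drives expression. Neither the labels nor the methods say whether the dishes came from separate mice, so the p-values speak for the spread among dishes, which may be technical.

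Levels are the deposited RMA values, read as log2 expression, and a change is Ad-nuclear CREBH minus Ad-GFP on that scale, given with the standard error (SE) of the fit. A gene is said to have risen or fallen at a Benjamini-Hochberg adjusted p under 0.05 from limma over all 18820 genes. The Creb3l3 feature, which reads the CREBH gene, was at 9.97, 10.46 and 10.59 in Ad-nuclear CREBH dishes and at 8.49, 8.02 and 8.21 in Ad-GFP dishes, a log2 change of 2.10 ± 0.19 (SE; adjusted p = 9.0e-05 from limma). The arrays cannot tell viral from mouse transcript here. Albumin, which marks hepatocytes, was at 13.27 in Ad-nuclear CREBH and 13.28 in Ad-GFP dishes. Of 8 measured hepatocyte markers 3 fell, namely Tat, Asgr1 and Cps1, and 5 fell with both replicate 1 arrays left out; the mean level of the list was 9.33 to 10.08 in Ad-nuclear CREBH and 10.17 to 10.28 in Ad-GFP dishes. Macrophage markers (1 of 6 rose, 2 fell) had mean levels of 5.53 to 6.00 in Ad-nuclear CREBH and 5.77 to 6.03 in Ad-GFP dishes. The brightest of them, Cd68, was at 10.35 in Ad-nuclear CREBH and 11.49 in Ad-GFP dishes and fell to 45.6% (adjusted p = 0.0215), and the others were far dimmer. Stellate cell markers (1 of 6 fell) were at 4.10 to 4.72 in Ad-nuclear CREBH and 4.32 to 4.51 in Ad-GFP dishes. Among them Col1a1, a collagen gene, was at 5.02, 7.30 and 7.51 in Ad-nuclear CREBH dishes and at 5.25, 4.90 and 4.77 in Ad-GFP dishes. Its log2 change of 1.63 did not pass (adjusted p = 0.0619) but did after quantile normalization (adjusted p = 0.0459) and, at 2.57, with both replicate 1 arrays left out (adjusted p = 6.4e-07). Endothelial markers, of which 0 of 5 passed, had mean levels of 4.80 to 5.09 in Ad-nuclear CREBH and 4.90 to 5.14 in Ad-GFP dishes. These means lay below the median of all genes, 5.24, but only 1 of the 5 markers, Clec4g, was itself below it. Cholangiocyte markers (1 of 4 rose, 1 fell) were at 5.49 to 5.68 in Ad-nuclear CREBH and 5.01 to 5.66 in Ad-GFP dishes. Brown fat markers (Cidea of 3 rose) were at 5.91 to 6.01 in Ad-nuclear CREBH and 4.08 to 5.27 in Ad-GFP dishes, and striated muscle markers (Acta1 of 4 fell) at 3.65 to 3.75 in Ad-nuclear CREBH and 4.15 to 4.45 in Ad-GFP dishes. Cidea was at 9.56 in Ad-nuclear CREBH and 5.63 in Ad-GFP dishes, and Acta1 at 4.91 and 7.79. The other markers of both lists did not pass in the fit of all arrays. Ucp1, which defines brown fat, was low at 2.69 in Ad-nuclear CREBH and 2.88 in Ad-GFP dishes. When both replicate 1 arrays were left out, 1 macrophage marker rose and 3 fell, 2 stellate cell markers rose and 1 fell, 1 endothelial marker fell, 2 cholangiocyte markers rose and 1 fell, 2 brown fat markers rose, and 1 striated muscle marker rose and 1 fell. Of all genes 23.3% rose and 25.3% fell in that fit, and 19.2% rose and 18.2% fell in the fit of all arrays. The part of these cell type markers in the results below was not tested. Fewer cells of a type and less RNA per cell cannot be told apart in such samples.

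Both arrays numbered 1 stood apart for these genes. Replicate 1 was the lowest of its group for 19 of the 31 genes (61.3%) in Ad-nuclear CREBH dishes and for 27 (87.1%) in Ad-GFP dishes, against 42.2% and 45.4% of all genes. It was the lowest in both groups for 17 genes. Decr1, for example, was lower in replicate 1 than in the mean of the others by 1.38 in Ad-nuclear CREBH and by 0.97 in Ad-GFP dishes, whereas Acox2 and Ppargc1a were higher in replicate 1 of both groups. The main counts, and the values of genes whose call turned on these arrays, are also given with both left out. That fit has 2 dishes per group, and what sets replicate 1 apart was not tested. Leaving out arrays that stood apart can narrow the spread within groups. There 23.3% of all genes rose and 25.3% fell, against 19.2% and 18.2% in the fit of all arrays. A call gained in that fit is therefore no separate support for a change.

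**Figure D1:**
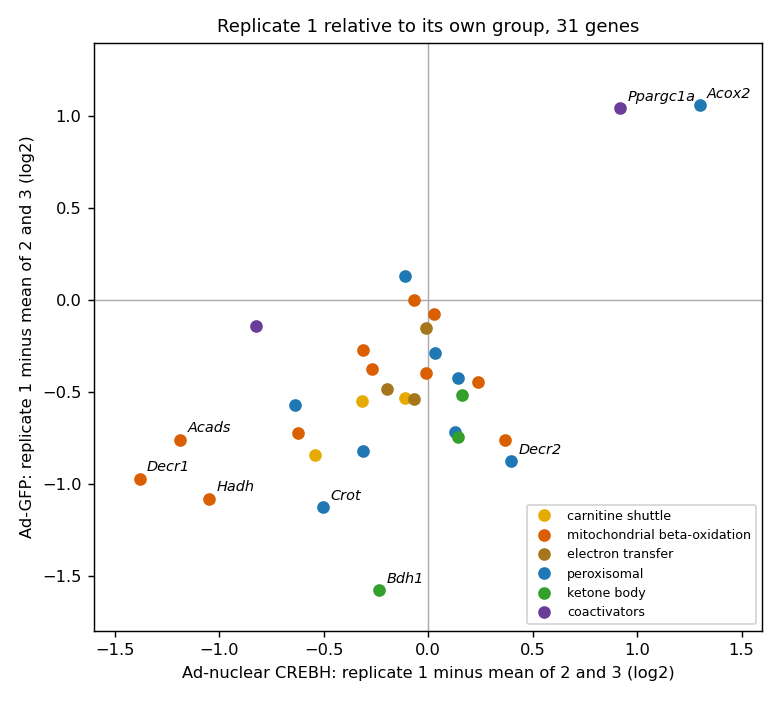
Level of each of the 31 measured genes on the replicate 1 array minus the mean of replicates 2 and 3 (log2), in Ad-nuclear CREBH dishes on the horizontal axis and in Ad-GFP dishes on the vertical axis; colours are roles, and genes beyond 0.85 on either axis are named. Most points lie below 0 on the vertical axis, Decr1, Acads and Hadh are low in both groups, and Acox2 and Ppargc1a are high in both.

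The listed genes fell more often than they rose in hepatocytes with nuclear CREBH, whereas of 41 other pathway genes, described below, 16 rose and 12 fell. Of the 31 measured genes 13 fell (41.9%) and 4 rose (12.9%), where 18.2% and 19.2% of all genes fell and rose. The median log2 fold change was -0.62, against 0.04 for all genes. The 31 genes were also brighter, with a median level of 8.77 against 5.24 for all genes, and brighter genes were called more often. In a fit of only the 9410 genes above the median level 2967 fell and 2895 rose. Of the 30 listed genes in that fit 13 fell and 5 rose. In the fit of all genes, those of the 31 that fell included the thiolase gene Acaa2, the carnitine octanoyltransferase gene Crot and the ketone body gene Bdh1. They were at 26.1%, 25.4% and 20.9% of their levels in Ad-GFP dishes, while the peroxisomal oxidase gene Acox3 rose most, 3.70-fold. The remaining 14 genes did not pass. By pathway, 7 of 17 mitochondrial genes fell and 2 rose (median -0.58), 4 of 9 peroxisomal genes fell and 2 rose (median -0.75), 2 of 3 ketone body genes fell and 0 rose (median -0.63), and neither coactivator gene passed. The arrays of the groups did not overlap for 18 of the 31 genes (58.1%), against 49.4% of all genes. With both replicate 1 arrays left out, 20 genes fell and 6 rose, where 25.3% and 23.3% of all genes fell and rose. Of the falls 11 were of mitochondrial, 6 of peroxisomal and 2 of ketone body genes, and 1 was of a coactivator gene. The methods state a p under 0.001, a change of more than 2-fold and an expression value over 300. Here they were applied to the unadjusted limma p and to a linear mean over 300 in either group, since no source names an adjustment or the samples that had to exceed the value. By these criteria 5 genes fell (Acadm, Echs1, Acaa2, Crot and Eci2) and 2 rose (Hadhb and Acox3), against 3.10% and 4.91% of all genes. The expression value was reached by 21 of the 31 genes but by only 4741 of all genes, which lowers the shares of all genes. Of those 4741 genes 584 fell and 924 rose by these criteria. An intensity-based moderated statistic in place of the limma p called as many of the 31 genes, 5 and 2.

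**Figure D2:**
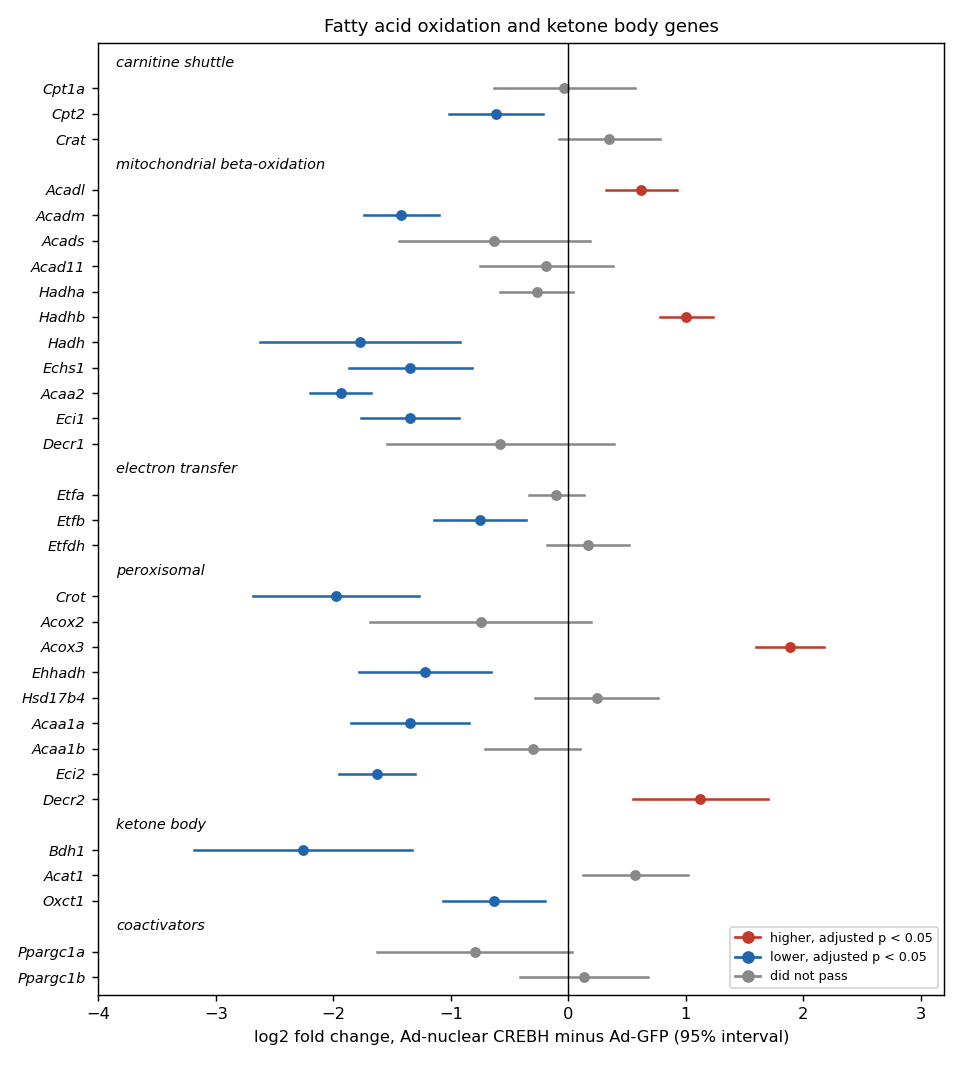
Log2 fold change (Ad-nuclear CREBH minus Ad-GFP, n = 3 dishes each) of the 31 measured genes by role, with the 95% interval of the limma fit; red and blue points passed an adjusted p of 0.05, grey points did not. The 13 genes that fell are spread over carnitine shuttle, mitochondrial, electron transfer, peroxisomal and ketone body genes, and Acox3, at 1.89, lies farthest to the right.

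The carnitine shuttle carries acyl groups across the mitochondrial membranes. Cpt1a, the gene of its rate-limiting outer membrane enzyme, was at 8.51, 9.08 and 9.03 in Ad-nuclear CREBH dishes and at 8.35, 9.26 and 9.12 in Ad-GFP dishes. The groups overlapped, and the log2 fold change of -0.03 had a 95% interval of -0.63 to 0.56 and was 0.11 when arrays were centred on their medians. Cpt2, whose inner membrane enzyme passes the acyl group back to CoA, was at 7.54, 7.70 and 7.59 in Ad-nuclear CREBH dishes and at 7.87, 8.45 and 8.36 in Ad-GFP dishes. It fell to 65.2% of the Ad-GFP level, a log2 change of -0.62 ± 0.17 (SE; adjusted p = 0.0239 from limma). This call was lost when any array but Ad-GFP replicate 1 was left out, with adjusted p = 0.0582 to 0.0922. Crat, the carnitine acetyltransferase gene, was at 8.34, 8.68 and 8.62 in Ad-nuclear CREBH dishes and at 7.83, 8.43 and 8.33 in Ad-GFP dishes and did not pass (adjusted p = 0.191). With both replicate 1 arrays left out its log2 fold change of 0.27 passed (adjusted p = 0.0136).

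Beta-oxidation begins with acyl-CoA dehydrogenases that divide the work by chain length; 1 of their genes rose and 1 fell. Acadl, which acts on long chains, was at 9.92, 9.95 and 9.91 in Ad-nuclear CREBH dishes and at 9.04, 9.40 and 9.48 in Ad-GFP dishes. It rose 1.54-fold, a log2 change of 0.62 ± 0.13 (SE; adjusted p = 0.00661). Acadm, the medium-chain enzyme gene, was at 8.56, 8.85 and 8.89 in Ad-nuclear CREBH dishes and at 10.00, 10.32 and 10.23 in Ad-GFP dishes. It fell to 37.4%, a log2 change of -1.42 ± 0.14 (SE; adjusted p = 1.2e-04). The difference between Acadl and Acadm on the same array was 1.36, 1.11 and 1.02 in Ad-nuclear CREBH dishes and -0.96, -0.92 and -0.75 in Ad-GFP dishes. These did not overlap and differed by 2.04. Acads, the short-chain enzyme gene, was at 7.10, 8.25 and 8.33 in Ad-nuclear CREBH dishes and at 8.02, 8.84 and 8.71 in Ad-GFP dishes, and its log2 fold change of -0.63 did not pass (adjusted p = 0.211). With both replicate 1 arrays left out it was -0.49 and passed (adjusted p = 7.1e-04). Acad11, a further dehydrogenase gene, was at 9.09 in Ad-nuclear CREBH and 9.28 in Ad-GFP dishes and did not pass, and with both replicate 1 arrays left out its log2 fold change was -0.22 (adjusted p = 0.0116).

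The mitochondrial trifunctional protein performs the last steps on long chains. Its alpha subunit, the hydratase and dehydrogenase, is encoded by Hadha and its beta subunit, the thiolase, by Hadhb. Hadhb was at 10.23, 10.18 and 10.23 in Ad-nuclear CREBH dishes and at 9.16, 9.17 and 9.30 in Ad-GFP dishes, with no overlap. It rose 2.01-fold, a log2 change of 1.00 ± 0.10 (SE; adjusted p = 1.2e-04), and a second feature of the gene differed by 0.99. Hadha was at 10.24, 10.48 and 10.55 in Ad-nuclear CREBH dishes and at 10.44, 10.84 and 10.79 in Ad-GFP dishes, with a log2 fold change of -0.27 that did not pass (95% interval -0.58 to 0.04, adjusted p = 0.164). It was -0.31 with both replicate 1 arrays left out (adjusted p = 0.00111) and -0.42 after cyclic loess (adjusted p = 0.0386). On the same array Hadha minus Hadhb was 0.01, 0.30 and 0.32 in Ad-nuclear CREBH dishes and 1.28, 1.67 and 1.49 in Ad-GFP dishes, a shift of -1.28 without overlap.

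Hadha and Hadhb lie head to head on chromosome 5, with annotated starts 273 bases apart and promoter windows that overlap by 228 bases. The window of Hadhb, from 250 bases before to 50 bases after its start, is shown because these subunit genes with unlike changes share it (RefSeq, GRCm38.p6, plus strand, chr5:30155003-30155302). Capitals mark the stretch that is also part of the Hadha window on the minus strand.
Hadhb: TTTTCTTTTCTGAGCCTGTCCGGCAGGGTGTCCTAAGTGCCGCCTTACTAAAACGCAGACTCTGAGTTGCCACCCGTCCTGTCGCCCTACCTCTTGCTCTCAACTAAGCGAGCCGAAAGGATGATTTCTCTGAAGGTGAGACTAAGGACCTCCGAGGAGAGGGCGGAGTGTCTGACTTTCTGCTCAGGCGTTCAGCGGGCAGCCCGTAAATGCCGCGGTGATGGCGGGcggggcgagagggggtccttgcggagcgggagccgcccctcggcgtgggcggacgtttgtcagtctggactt
No TGACG or AGGTCA was found in it on either strand.

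Hadh, Echs1 and Acaa2, which serve the later steps on shorter chains, all fell. Hadh, the short-chain 3-hydroxyacyl-CoA dehydrogenase gene, was at 7.58, 8.55 and 8.70 in Ad-nuclear CREBH dishes and at 9.33, 10.41 and 10.42 in Ad-GFP dishes. Replicate 1 was the lowest in both groups, and the gene fell to 29.2%, a log2 change of -1.77 ± 0.37 (SE; adjusted p = 0.00603) that was -1.79 with both replicate 1 arrays left out. Echs1, which encodes the short-chain enoyl-CoA hydratase, was at 8.34, 7.90 and 8.04 in Ad-nuclear CREBH dishes and at 8.93, 9.72 and 9.66 in Ad-GFP dishes. It fell to 39.3%, a log2 change of -1.35 ± 0.23 (SE; adjusted p = 0.00207). Acaa2, the mitochondrial 3-ketoacyl-CoA thiolase gene, was at 8.14, 8.25 and 8.16 in Ad-nuclear CREBH dishes and at 10.12, 10.24 and 10.00 in Ad-GFP dishes. Its replicates lay close together, and it fell to 26.1%, a log2 change of -1.94 ± 0.11 (SE; adjusted p = 2.0e-05). The promoter window of Acadm, which fell with them, is shown because it holds both short motifs searched (RefSeq, GRCm38.p6, minus strand, chr3:153944594-153944893). Capitals mark AGGTCA and TGACG on either strand.
Acadm: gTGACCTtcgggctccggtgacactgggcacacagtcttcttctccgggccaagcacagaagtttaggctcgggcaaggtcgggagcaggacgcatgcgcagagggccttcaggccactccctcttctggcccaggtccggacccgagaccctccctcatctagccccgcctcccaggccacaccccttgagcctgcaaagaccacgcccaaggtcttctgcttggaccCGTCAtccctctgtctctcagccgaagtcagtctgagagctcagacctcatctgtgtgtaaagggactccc

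Unsaturated fatty acids need auxiliary enzymes that move or reduce their double bonds, in mitochondria through Eci1 and Decr1 and in peroxisomes through Eci2 and Decr2. Eci1 was at 6.07, 5.92 and 5.73 in Ad-nuclear CREBH dishes and at 6.96, 7.35 and 7.46 in Ad-GFP dishes. Eci2, whose product is also found in mitochondria, was at 7.36, 7.44 and 7.21 in Ad-nuclear CREBH dishes and at 8.77, 9.03 and 9.10 in Ad-GFP dishes. Both isomerase genes fell, with log2 fold changes of -1.35 (SE 0.18, adjusted p = 6.1e-04) for Eci1 and -1.63 (SE 0.14, adjusted p = 6.8e-05) for Eci2. Of the reductase genes, Decr2 rose. It was at 9.97, 9.65 and 9.50 in Ad-nuclear CREBH dishes and at 8.00, 8.84 and 8.91 in Ad-GFP dishes. The rise was 2.18-fold, a log2 change of 1.12 ± 0.25 (SE; adjusted p = 0.00828), which was 0.70 with both replicate 1 arrays left out (adjusted p = 5.3e-05). Decr1 was at 6.34, 7.62 and 7.83 in Ad-nuclear CREBH dishes and at 7.19, 8.19 and 8.15 in Ad-GFP dishes, and its log2 fold change of -0.58 did not pass (adjusted p = 0.332). With both replicate 1 arrays left out it was -0.44 (adjusted p = 0.00335).

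The electron transfer flavoprotein takes up electrons from the acyl-CoA dehydrogenases and passes them through its oxidoreductase to ubiquinone. Of its subunit genes Etfb was at 7.92, 7.94 and 8.04 in Ad-nuclear CREBH dishes and at 8.36, 8.95 and 8.85 in Ad-GFP dishes. It fell to 59.3%, a log2 change of -0.75 ± 0.17 (SE; adjusted p = 0.00888). Etfa was at 9.31, 9.33 and 9.31 in Ad-nuclear CREBH dishes and at 9.32, 9.47 and 9.48 in Ad-GFP dishes, with a log2 fold change of -0.10 (95% interval -0.34 to 0.13) that was 0.04 when arrays were centred on their medians. Etfa minus Etfb on the same array did not overlap between the groups and was higher by 0.65 in Ad-nuclear CREBH dishes. Etfdh, the oxidoreductase gene, was at 10.10 in Ad-nuclear CREBH and 9.93 in Ad-GFP dishes and did not pass (95% interval -0.18 to 0.52); its sign turned with quantile normalization, at -0.01.

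Of the 9 peroxisomal genes 4 fell and 2 rose. Acox3, an oxidase gene for branched chains, was at 9.61, 9.73 and 9.72 in Ad-nuclear CREBH dishes and at 7.89, 7.61 and 7.90 in Ad-GFP dishes. It had the largest rise of the 31 genes, a log2 change of 1.89 ± 0.13 (SE; adjusted p = 2.8e-05). A dim second feature of Acox3 was at 3.57 in Ad-nuclear CREBH and 3.18 in Ad-GFP dishes, and the mean of both features gave a log2 fold change of 1.14. Acox2, which oxidizes branched chains and bile acid intermediates, was at 9.53, 8.23 and 8.23 in Ad-nuclear CREBH dishes and at 10.12, 9.06 and 9.05 in Ad-GFP dishes. Replicate 1 was the highest in both groups, and the log2 fold change of -0.75 did not pass (adjusted p = 0.201). With both replicate 1 arrays left out it was -0.83 (adjusted p = 9.5e-06). Acox2 minus Acox3 on the same array was lower by 2.64 in Ad-nuclear CREBH dishes, with no overlap between groups. The promoter window of Acox3 is shown as that of the gene that rose most (RefSeq, GRCm38.p6, plus strand, chr5:35582784-35583083), with its TGACG in capitals. No AGGTCA was found in it.
Acox3: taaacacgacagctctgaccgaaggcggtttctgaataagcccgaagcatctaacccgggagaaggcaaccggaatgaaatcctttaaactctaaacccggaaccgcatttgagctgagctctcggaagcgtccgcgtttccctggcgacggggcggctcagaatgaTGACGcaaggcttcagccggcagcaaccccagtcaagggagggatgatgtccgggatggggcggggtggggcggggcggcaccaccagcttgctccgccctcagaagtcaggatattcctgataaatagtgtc

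Of the genes of the later peroxisomal steps, Ehhadh and Acaa1a fell. Ehhadh, the bifunctional enzyme gene of straight chains and dicarboxylic acids, was at 5.93, 6.59 and 6.54 in Ad-nuclear CREBH dishes and at 7.19, 7.89 and 7.64 in Ad-GFP dishes. It fell to 42.8%, a log2 change of -1.22 ± 0.24 (SE; adjusted p = 0.00479). Hsd17b4, the second bifunctional enzyme gene, was at 9.75, 10.05 and 10.07 in Ad-nuclear CREBH dishes and at 9.17, 10.00 and 9.98 in Ad-GFP dishes and did not pass (95% interval -0.28 to 0.76). On the same array Ehhadh minus Hsd17b4 was lower by 1.46 in Ad-nuclear CREBH dishes, without overlap. Of the thiolase genes, Acaa1a was at 4.93, 4.86 and 4.75 in Ad-nuclear CREBH dishes and at 5.72, 6.42 and 6.45 in Ad-GFP dishes. It fell, a log2 change of -1.35 ± 0.22 (SE; adjusted p = 0.00165), and its level in Ad-nuclear CREBH dishes lay below the median of all genes, so that this change can be understated. Acaa1b was at 6.14, 6.10 and 5.89 in Ad-nuclear CREBH dishes and at 6.06, 6.43 and 6.55 in Ad-GFP dishes and did not pass (adjusted p = 0.226), but was lower by 0.49 with both replicate 1 arrays left out (adjusted p = 0.00972). Both thiolases are closely related copies, and probes of one may also bind transcripts of the other. Crot, whose octanoyltransferase readies shortened chains for export from the peroxisome, was at 8.12, 8.63 and 8.62 in Ad-nuclear CREBH dishes and at 9.68, 10.83 and 10.79 in Ad-GFP dishes. It fell to 25.4%, a log2 change of -1.97 ± 0.31 (SE; adjusted p = 0.00136).

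**Figure D3:**
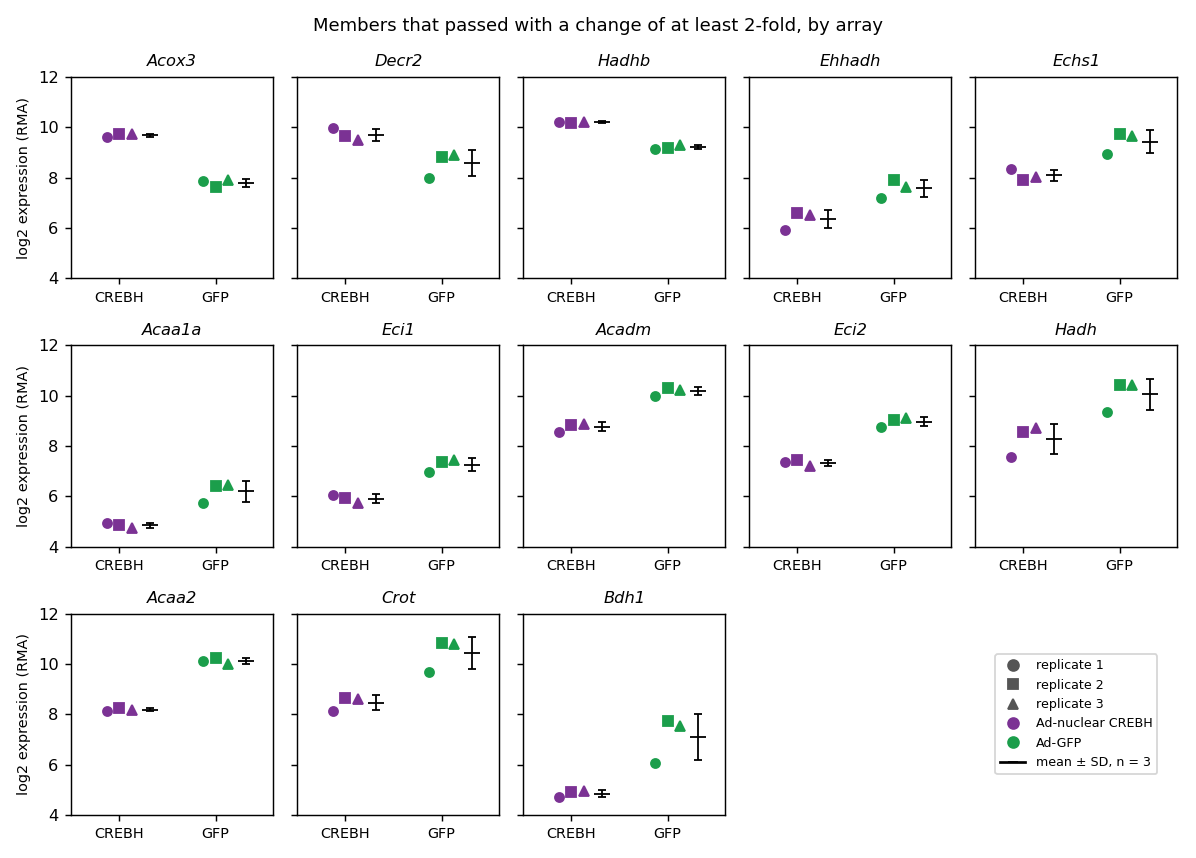
Log2 expression (RMA) on each array of the 13 genes that passed with a change of at least 2-fold, ordered from the largest rise to the largest fall, in Ad-nuclear CREBH (purple, left) and Ad-GFP dishes (green, right); symbols are replicates and bars the mean ± SD of 3 dishes. The groups do not overlap in any panel, and the Ad-GFP replicate 1 circle lies low in the panels of Hadh, Crot and Bdh1.

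Of the ketone body genes Bdh1 and Oxct1 fell. Bdh1, which encodes the dehydrogenase that interconverts acetoacetate and 3-hydroxybutyrate, was at 4.69, 4.90 and 4.94 in Ad-nuclear CREBH dishes and at 6.05, 7.71 and 7.55 in Ad-GFP dishes. It had the largest fall of the 31 genes, to 20.9%, a log2 change of -2.26 ± 0.40 (SE; adjusted p = 0.00269) that was -2.71 with both replicate 1 arrays left out. Its level in Ad-nuclear CREBH dishes was below the median of all genes. Acat1, the mitochondrial acetoacetyl-CoA thiolase gene, was at 11.42, 11.34 and 11.22 in Ad-nuclear CREBH dishes and at 10.26, 10.99 and 11.02 in Ad-GFP dishes. The arrays did not overlap, but the log2 fold change of 0.57 lay just outside the threshold (adjusted p = 0.0507), and with both replicate 1 arrays left out it was 0.28 and passed (adjusted p = 0.00283). Bdh1 minus Acat1 on the same array was lower by 2.83 in Ad-nuclear CREBH dishes. Oxct1, which serves the use of ketone bodies in tissues outside the liver, was at 6.06, 6.00 and 5.79 in Ad-nuclear CREBH dishes and at 6.24, 6.72 and 6.79 in Ad-GFP dishes. It fell, a log2 change of -0.63 ± 0.19 (SE; adjusted p = 0.0297), and lost this call when replicate 2 or 3 of either group was left out, with adjusted p = 0.0774 to 0.114.

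The coactivators PGC-1alpha and PGC-1beta enhance the transcription of oxidative genes through nuclear receptors. Ppargc1a was at 5.92, 4.86 and 5.15 in Ad-nuclear CREBH dishes and at 6.81, 5.80 and 5.72 in Ad-GFP dishes. Replicate 1 was the highest in both groups, and the log2 fold change of -0.80 did not pass (adjusted p = 0.124). It was -0.76 with both replicate 1 arrays left out (adjusted p = 0.00246), and a second, dimmer feature differed by -0.47. Ppargc1b was at 4.32, 5.08 and 5.21 in Ad-nuclear CREBH dishes and at 4.64, 4.75 and 4.81 in Ad-GFP dishes. It was the only one of the 31 genes with a mean below the median of all genes, and it did not pass (95% interval -0.41 to 0.68).

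Related genes were set against each other on the same array in 16 pairs. In 15 pairs the 3 Ad-nuclear CREBH arrays lay entirely above or below the 3 Ad-GFP arrays, the exception being Ppargc1a and Ppargc1b. The pairs were chosen with earlier results known; of all 465 pairs of the measured genes 68.6% did not overlap either, and of all pairs among the 18820 genes 58.0%. An exact two-sided permutation test of 3 arrays against 3 cannot give a p under 0.1, which these 15 pairs had (adjusted p = 0.107 over the 16 pairs), so that none of the differences passed. The widest were -2.83 for Bdh1 minus Acat1, -2.64 for Acox2 minus Acox3, 2.32 for Crat minus Crot and 2.04 for Acadl minus Acadm.

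**Figure D4:**
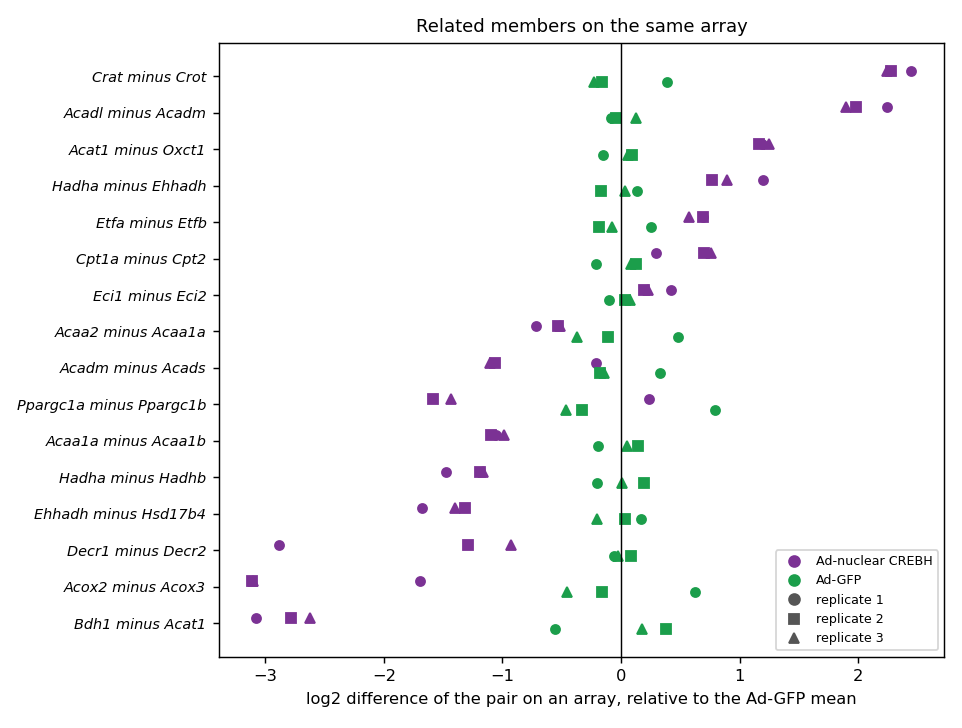
Difference between the log2 values of related genes on the same array, shown relative to the Ad-GFP mean of that pair, for Ad-nuclear CREBH (purple, above) and Ad-GFP arrays (green, below); symbols are replicates. All pairs but Ppargc1a and Ppargc1b separate the groups, from Crat minus Crot at the top to Bdh1 minus Acat1 at the bottom.

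Of the measured genes, 25 had a promoter window among the 32851 windows of RefSeq (GRCm38.p6), each of 300 bases. TGACG, the core of the cAMP response element that CREB family factors bind, was found on either strand for 8 of these 25 genes, of which 1 rose, 2 fell and 5 did not pass. It was present in 20.8% of all windows. A gene was counted if any of its windows held the motif, and Acox2 and Bdh1 had more than 1 window. The shares of all windows, in contrast, count each window singly. The full element TGACGTCA was found for 0 of the 25 genes and in 1.79% of all windows, and TGACGTG for 1 gene, Ppargc1a, and in 2.01% of all windows. Both longer motifs contain the core. The sequence AGGTCA, the site unit of nuclear receptors such as PPARalpha, was found for 3 genes (Acadm, Echs1 and Cpt1a) and in 16.3% of all windows, and its direct repeat with 1 base between the units for 0 genes and in 0.04% of all windows.

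Of 51 other genes listed for these pathways 41 were measured, of which 16 rose and 12 fell, with a median log2 fold change of 0.06. Of all genes 19.2% rose and 18.2% fell. The rises were led by Bdh2, a cytosolic dehydrogenase gene related in name to Bdh1, which was at 9.56, 9.49 and 9.46 in Ad-nuclear CREBH dishes and at 5.87, 5.52 and 6.37 in Ad-GFP dishes (log2 fold change 3.58, adjusted p = 2.2e-05). Next were the hormone gene Fgf21 at 3.28 (adjusted p = 1.8e-05) and Ppara, the nuclear receptor that drives transcription of many of the genes described here, at 3.11 (adjusted p = 2.4e-05). Acacb, whose product forms the malonyl-CoA that inhibits carnitine palmitoyltransferase 1, rose by 2.96 (adjusted p = 5.1e-05) and Slc22a5, the carnitine uptake transporter gene, by 2.35 (adjusted p = 2.4e-05).

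Among the other genes that fell, Acot2, a mitochondrial acyl-CoA thioesterase gene, was at 6.46, 7.52 and 7.92 in Ad-nuclear CREBH dishes and at 10.36, 10.31 and 10.44 in Ad-GFP dishes (log2 fold change -3.07, adjusted p = 1.9e-04). Lpin1, a lipin that also acts as a coactivator of PPARalpha, followed at -2.64 (adjusted p = 3.6e-05). Pdk4, the pyruvate dehydrogenase kinase gene that is typically induced together with fatty acid oxidation, was at 5.18, 5.18 and 4.74 in Ad-nuclear CREBH dishes and at 8.29, 6.50 and 6.22 in Ad-GFP dishes. Its log2 fold change of -1.97 (adjusted p = 0.0138) was -1.32 when Ad-GFP replicate 1 was left out, and the adjusted p was 0.0532 when Ad-nuclear CREBH replicate 3 was left out. Cpt1c, a carnitine palmitoyltransferase 1 form known from brain, fell as well, at -1.56 (adjusted p = 0.00536) and Scp2, which encodes a sterol carrier protein and a peroxisomal thiolase, at -1.47 (adjusted p = 7.5e-04). Cpt1c was dim, at 3.85 in Ad-nuclear CREBH and 5.42 in Ad-GFP dishes, and the former lay below the median of all genes.

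**Figure D5:**
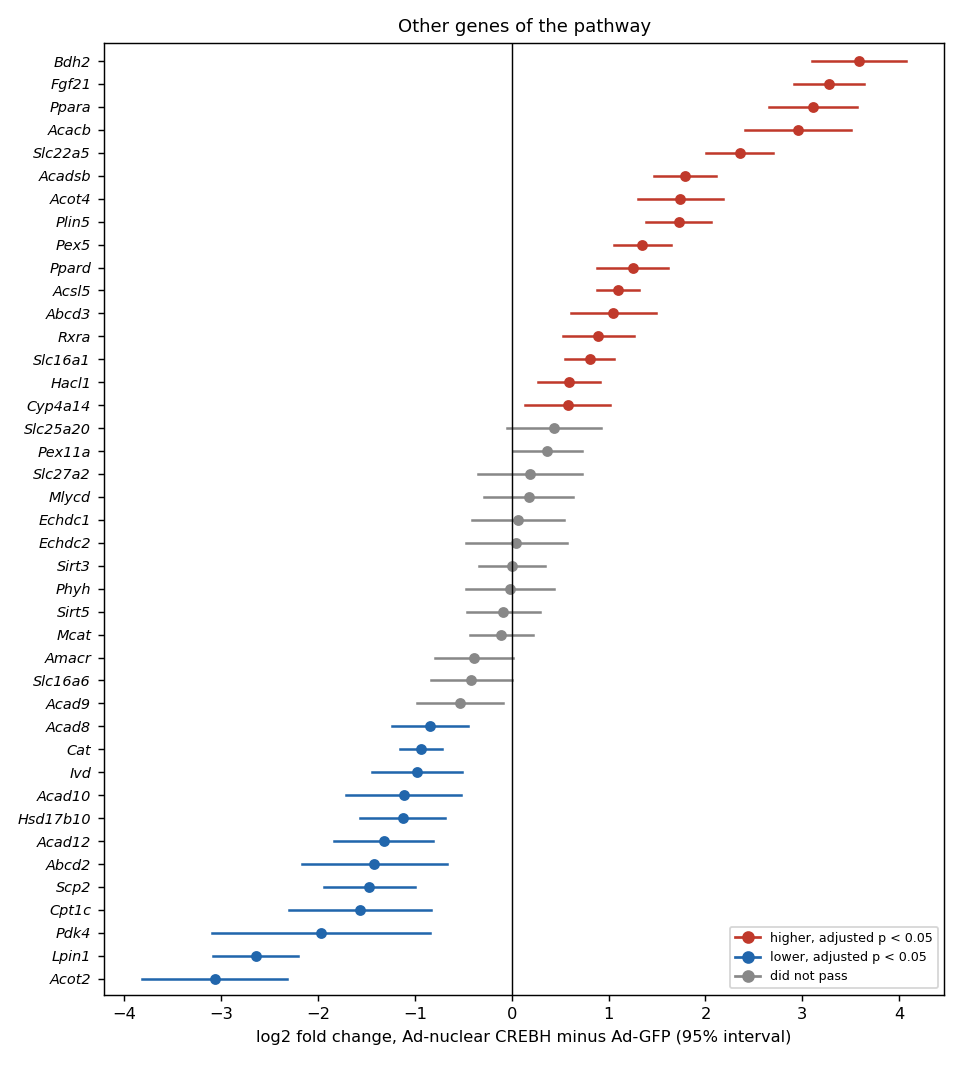
Log2 fold change (Ad-nuclear CREBH minus Ad-GFP, n = 3 dishes each) of 41 other genes of the pathways with the 95% interval of the limma fit, ordered from the largest rise to the largest fall; red and blue points passed an adjusted p of 0.05. Bdh2, Fgf21 and Ppara, at 3.58, 3.28 and 3.11, stand at the top and Acot2, at -3.07, at the bottom.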

How the data were processed

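Gene expression was measured in primary hepatocytes on Affymetrix Mouse Gene 1.1 ST arrays, 3 for Ad-nuclear CREBH and 3 for Ad-GFP, with groups taken from the sample labels. Values were deposited on a log2 scale after RMA, a routine for background correction, normalization between arrays and probe summary that the submitters' processing notes name without a version. Neither labels nor methods state the array definition. The log base is read from the range of the values, 1.17 to 13.66. RMA values carry no background flag, so the change of a dim gene is understated. Of 35556 features, 21218 carried 1 symbol in the platform annotation, 1881 several and 12457 none; only the first kind was used, and of several features of 1 gene the brightest, giving 18820 genes. No pair of arrays shared more than 11 values.

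Linear models were fitted with limma 3.58.1 in R 4.3.3 (lmFit, eBayes with an intensity trend, no covariate), Ad-nuclear CREBH minus Ad-GFP, with Benjamini-Hochberg adjustment over all genes. The intensity-based moderated statistic of the methods was an alternative, as were other normalizations, weights, filters, call rules, the replicate number as a block and leaving out arrays. The script was tested on simulated data. The number of arrays limits the precision. Genes with a called change of at least 1 on the log2 scale are given array by array, and of the other pathway genes the 5 largest rises and 5 largest falls, Ppara and Fgf21 are named. The members, lists and tests were chosen with earlier results of these data known. Figures were drawn with matplotlib 3.10.9.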

Additional observations from a re-analysis of the deposited data

How the results depend on the processing

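Of the 17 genes called, 15 kept their call and direction in every one of the 17 other fits in which they were tested, the exceptions being Cpt2 and Oxct1, and no call changed direction. After centring each array on its median, the median change over all genes was 0.18 in place of 0.04 and that of the 31 genes -0.47, with 6 rises and 13 falls. Of all genes 4814 then rose and 2852 fell, against 3615 and 3427 in the fit reported. Another background correction was not run, since the values were already RMA values. Among ketone body genes 1 rose, Acat1, with centring, with array weights, with a filter at 300 or at the median level, and with both replicate 1 arrays left out, against 0 in the fit reported, and under cyclic loess 1 fell instead of 2. The filter at 300 left 21 of the genes, of which 7 fell and 5 rose, with 2 falls among peroxisomal genes and 0 among ketone body genes. Of all 4741 genes that it left 1468 fell and 1861 rose. The median log2 fold change there was -0.19 for the 21 genes and 0.08 for all 4741. The criteria of the methods, with the limma p or, as chosen after seeing the data, the intensity-based statistic, gave 2 rises and 5 falls, with 1 and 3 among mitochondrial, 1 and 2 among peroxisomal and 0 falls among ketone body genes. A 2-fold minimum beside the adjusted p gave 1 mitochondrial rise and 1 ketone body fall. Of the 31 genes 3 rose and 10 fell by this rule, and of all 18820 genes 1775 rose and 1686 fell. With both replicate 1 arrays left out 20 genes fell, 11 of them mitochondrial, where 4765 of all genes fell. With 1 array left out 4 to 5 genes rose and 11 to 15 fell, with 0 to 1 rises and 1 to 2 falls among ketone body genes. In these fits 2877 to 3764 of all genes rose and 2637 to 4043 fell.

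The labels do not say what a shared replicate number stands for. Over all genes the deviations of same-numbered arrays correlated at 0.18, 0.07 and 0.14, and Ad-nuclear CREBH replicate 2 correlated better with Ad-GFP replicate 3 (0.12); over the 31 genes the same-numbered correlations were 0.61, 0.66 and 0.41. Both arrays numbered 1 correlated positively with each other only. Deviations from a group mean cancel out within the group, so a positive value here makes negative values elsewhere necessary. This pattern therefore cannot tell what the number stands for. With the replicate number as a block (replicate block) 4 of the 31 genes rose and 18 fell, against 3715 and 3705 of all genes; all 17 calls were kept, and Acads, Hadha, Decr1, Acox2 and Ppargc1a fell in addition.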
